A study of Mus musculus with 6 samples.

Results

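Nr4a1 and Nr4a2 were followed in whole adrenal glands of hypertensive BPH mice and hypotensive BPL mice, a pair of strains selected on blood pressure. They were represented by every Affymetrix MG_U74Av2 probe set whose annotation names 1 gene and for which that gene is Nr4a1 or Nr4a2. The 2 genes are 2 of 8252 named on the array and have 3 of its 12488 probe sets, 102371_at for Nr4a1, and 92248_at and 92249_g_at, both designed on the same sequence accession, for Nr4a2. The 2 genes were chosen with strain differences on these same arrays known, so their differences are described here without a test. There were 3 arrays of BPH adrenals and 3 of BPL adrenals. Age, sex, treatment, time of collection and the number of mice per array are not given in the labels used here, nor is it stated that the replicates of a strain came from separate animals, so the spread between arrays may be partly technical. No probe set was annotated to Nr4a3 alone, and the third receptor of the family was not analysed here.

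The Nr4a proteins are orphan nuclear receptors, transcription factors of the steroid receptor superfamily whose activity is set mainly by how much of the protein is made. Their genes are early response genes. In the adrenal cortex corticotropin, acting through cyclic AMP and protein kinase A, and angiotensin II, acting through calcium, both induce them within a short time. Nr4a1 (Nur77, NGFI-B) and Nr4a2 (Nurr1) bind a DNA element called the NBRE and have been reported to act on genes of steroid synthesis. Nr4a2 is also needed for the formation of midbrain dopamine neurons.

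Cyclic AMP acts on many genes through CREB and related factors, which bind the cyclic AMP response element (CRE). The sequences just upstream of both genes are shown because each holds 4 copies of the CRE half-site TGACG, counted on both strands. They are the 250 bases before the transcription start annotated by RefSeq in the C57BL/6J assembly GRCm38.p6, chr15:101266596-101266845 on the plus strand for Nr4a1 and chr2:57124004-57124253 on the minus strand for Nr4a2. Capitals mark CRE half-sites, read as TGACG or as CGTCA, and in Nr4a1 the longer element TGCGTCA, which contains the half-site.
Nr4a1: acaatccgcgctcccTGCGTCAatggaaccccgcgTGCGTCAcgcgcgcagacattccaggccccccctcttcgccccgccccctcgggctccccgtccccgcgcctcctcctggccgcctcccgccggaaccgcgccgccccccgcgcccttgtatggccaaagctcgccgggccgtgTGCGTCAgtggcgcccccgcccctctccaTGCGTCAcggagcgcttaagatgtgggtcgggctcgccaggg
Nr4a2: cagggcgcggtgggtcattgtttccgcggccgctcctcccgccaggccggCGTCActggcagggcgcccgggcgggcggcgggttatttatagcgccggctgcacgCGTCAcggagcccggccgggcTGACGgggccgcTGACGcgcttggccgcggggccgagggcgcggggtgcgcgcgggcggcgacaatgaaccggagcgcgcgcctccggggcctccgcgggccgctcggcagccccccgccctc

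All 4 half-sites of Nr4a1 lay inside a TGCGTCA element on the strand of the gene. These CRE-like elements began 235, 215, 71 and 42 bases before the start. In Nr4a2 the half-sites began 200, 144, 123 and 111 bases before the start, the first pair as CGTCA and the second as TGACG, and none was part of a TGCGTCA element. Of 32851 upstream windows of the same length in the RefSeq table, some of which belong to the same gene, 17.8% held at least 1 half-site and 0.137% held 4 or more. At least 1 TGCGTCA was found in 1.75% of the windows, and the Nr4a1 window was the 1 window with 4 or more. Both windows were rich in G and C, with 74.4% for Nr4a1 and 80% for Nr4a2, against a median of 52.4% over all windows, and the shares given were not matched for this. The full CRE, TGACGTCA, the NBRE, AAAGGTCA, and the CArG box, which binds serum response factor, were searched on both strands too. None of them was found in either window, and they occurred in 1.55%, 1.34% and 1.47% of all windows. With each window read only on the strand of its gene, the longest run common to both was gCGTCAcggagc. Its 12 bases include a half-site and were found, on either strand, in 5 of the 32851 windows. These are matches of letters in a reference strain, not measured binding sites, and the BPH and BPL sequences were not analysed here.

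**Figure D1:**
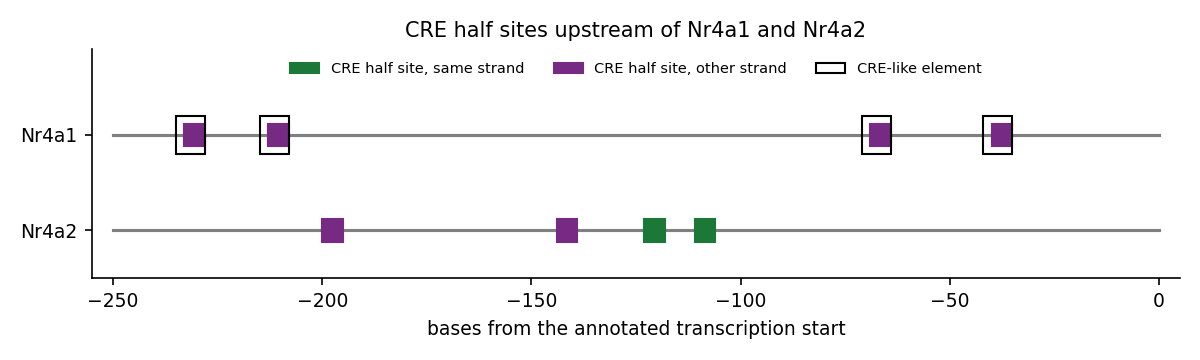
Positions of CRE half-sites (filled, coloured by strand) and CRE-like elements (open boxes) in the 250 bases before the annotated start of Nr4a1 and Nr4a2, with the distance from the start in bases on the horizontal axis. Each gene has 4 half-sites, and in Nr4a1 each lies inside a CRE-like element.

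Nr4a1 transcript signal was about 5-fold higher in BPH adrenals. The intensities, in the linear units of the deposited values, were 36151.8, 51198.6 and 54762.6 on BPH arrays 1, 2 and 3, against 8780.1, 6723.1 and 12715.9 on BPL arrays 1, 2 and 3. Every BPH array lay above every BPL array, and the lowest BPH value was 2.84 times the highest BPL value. The mean was 47370 ± 9878 in BPH and 9406 ± 3045 in BPL (SD, n = 3 each). The log2 difference, BPH minus BPL, was 2.36 (SE 0.24), which is 5.13-fold. It ranked 13 among the differences of the 7293 probe sets bright enough to be tested, counted from the largest increase in BPH. In a whole gland, fewer cells of a type and less RNA per cell cannot be told apart.

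Nr4a2 was read by 2 probe sets that pointed the same way and differed in size. At 92248_at the intensities were 806.2, 1827.7 and 2291 in BPH, against 579.1, 97.5 and 579.2 in BPL. The groups did not overlap, but the BPH 1 array lay nearer to the BPL arrays than to the other BPH arrays. The mean was 1642 ± 759.7 in BPH and 418.6 ± 278.1 in BPL (SD, n = 3 each), with a log2 difference of 1.88 (SE 0.52). The value of BPL 2 lay below 201.3, the floor to which low values were raised, so the difference depends on how low values are handled. It was 2.23 with the floor at the 10th percentile of the table, 1.60 when an offset was added to all values and no floor set, and 1.37 without BPL 2. At 92249_g_at the intensities were 500.9, 1470 and 1751.2 in BPH, against 640.2, 767.3 and 607.1 in BPL. Here the groups overlapped, because BPH 1 lay below all 3 BPL arrays. The log2 difference was 0.70 (SE 0.45), with 1241 ± 655.9 in BPH and 671.5 ± 84.57 in BPL as means (SD, n = 3 each). Both Nr4a2 probe sets were dim, with a mean log2 intensity 0.23 and 0.35 above the filter for testing. They passed it through the BPH arrays, since the BPL mean was 8.67 at 92248_at and 9.38 at 92249_g_at, below or at the filter on the log2 scale. A difference is therefore partly built into their passing. Array BPL 2, the lowest of the BPL arrays at 92248_at, was the highest of them at 92249_g_at.

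All 3 BPH arrays lay above all 3 BPL arrays at 2 of the 3 Nr4a probe sets. The same was true of 14.9% of all 7293 tested probe sets, and because the genes were chosen on this contrast nothing is read from the count. Within BPH, the array BPH 1 was the lowest and BPH 3 the highest at all 3 probe sets. The highest BPH value was 1.51 times the lowest for Nr4a1, and 2.84 and 3.5 times the lowest for the Nr4a2 probe sets 92248_at and 92249_g_at.

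**Figure D2:**
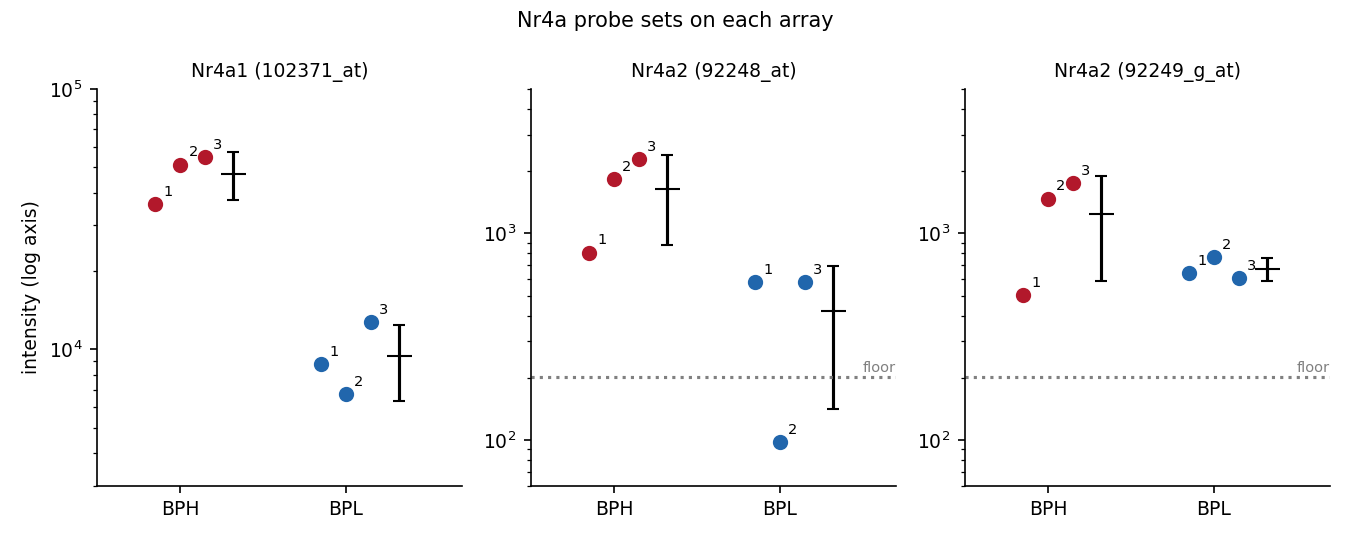
Intensity (log axis) of the 3 Nr4a probe sets on each array, BPH in red and BPL in blue, with array numbers beside the points and the mean ± SD (n = 3) as black bars. Nr4a1 separates the strains widely, 92248_at does so by less, and at 92249_g_at BPH 1 lies below the BPL arrays. The dotted line is the floor of 201.3.

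Leaving out single arrays changed the sizes but no direction. The Nr4a1 difference stayed between 2.14 (without BPL 2) and 2.60 (without BPL 3). The difference at 92248_at ran from 1.37 without BPL 2 to 2.33 without BPH 1. The difference at 92249_g_at was the least stable, at 0.36 without BPH 3, 0.49 without BPH 2 and 1.26 without BPH 1. Arrays BPH 1 and BPH 2 were run on fluidics station 2 and the other 4 on station 1. Within station 1, which leaves BPH 3 against the 3 BPL arrays, the log2 differences were 2.59 for Nr4a1, 2.49 for 92248_at and 1.39 for 92249_g_at, and the station as a block gave the same values. All BPL arrays were scanned before all BPH arrays, so scan order and strain cannot be told apart.

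**Figure D3:**
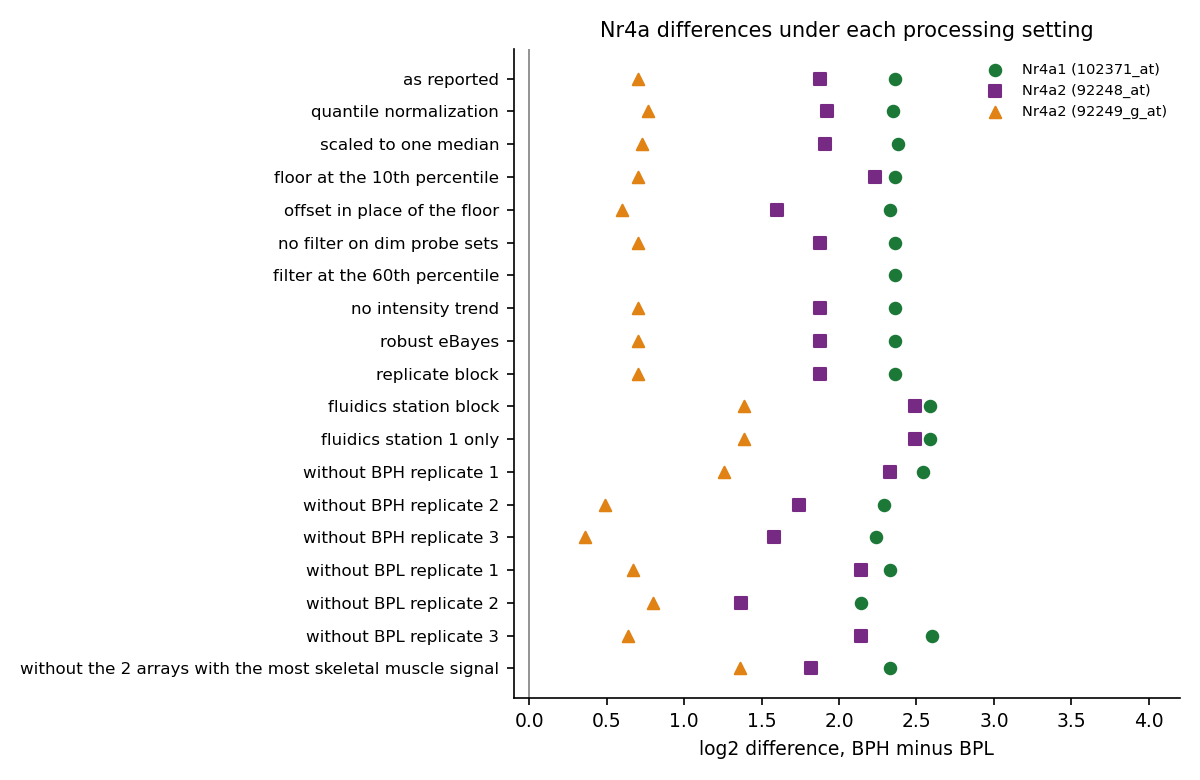
Log2 difference, BPH minus BPL, of the 3 Nr4a probe sets as reported and under each processing setting or omission of arrays. Every point lies above 0. Nr4a1 stays between 2.14 and 2.60, and 92249_g_at ranges from 0.36 to 1.39.

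Summed marker intensities of some other tissues differed between the arrays, and tissue amounts themselves were not measured. Defining cortex transcripts were present on all arrays, and the summed intensity of 8 cortex markers lay between 665622 and 779526 in BPH and between 668903 and 734310 in BPL. For 8 medulla markers the sums were 252484 to 311385 in BPH and 137705 to 275683 in BPL, and 1 of the 8 was called higher. Within BPL the medulla sum was lowest on BPL 2 and highest on BPL 3, as was Nr4a1. Brown fat markers, of which 7 of 8 were on the array and 1 of 6 tested was called lower in BPH, summed to 40136 to 67748 in BPH and 104858 to 302570 in BPL, with the highest sum on BPL 2. That array also had the lowest Nr4a1 value and the lowest value at 92248_at. Without it the log2 differences were 2.14 and 1.37. Skeletal muscle markers, 13 of 13 on the array with Myh2 below the floor throughout, summed to 180922 on BPH 1 and 198519 on BPL 2, against 11613 to 27338 on the other 4. Without those 2 arrays the differences were 2.33 for Nr4a1, 1.82 for 92248_at and 1.36 for 92249_g_at. Lymphocyte markers, 8 of 10 on the array, summed to 6680 to 8239 in BPH and 9436 to 11537 in BPL. Only 4 of these 8 were bright enough to be tested, and 0 were called in either direction. Macrophage markers, 8 of 8 on the array, summed to 16943 to 17486 in BPH and 15246 to 18067 in BPL. General fat markers, 7 of 9 on the array, summed to 108765 to 134424 in BPH and 102330 to 181747 in BPL, with the highest sum on BPL 2. These ranges overlapped, and 0 of the 7 were called. The part of the medulla, brown fat, general fat and lymphocyte sums in the Nr4a differences was not tested.

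Genes that carry the corticotropin signal to Nr4a were examined next. A gene was called at a limma p-value under 0.05 after Benjamini-Hochberg adjustment over all 5555 tested genes, and 2.48% of them were called in either direction, 1.57% higher and 0.918% lower in BPH. An unadjusted p under 0.05 was found for 19.4% of all tested genes. At these shares a list of about 20 genes may hold no called gene, so nothing is read from such a count. Of 52 genes listed for the corticotropin receptor, cyclic AMP and protein kinase A, 32 were on the array and 25 were tested. None passed in limma, 6 had an unadjusted p under 0.05, and the median log2 difference was 0.10, against 0.04 over all tested genes. Mc2r, the corticotropin receptor, had 10390 ± 453.3 in BPH and 8568 ± 1560 in BPL (SD, n = 3 each), a log2 difference of 0.29 (SE 0.15, adjusted p = 0.319). Crem encodes activators and the cyclic AMP-induced repressor ICER. Its intensities were 2037.9, 4548.1 and 4517.7 in BPH, against 2091, 1534.4 and 2368.4 in BPL. BPH 2 and BPH 3 were high, as they were for Nr4a2, and BPH 1 lay among the BPL arrays. The log2 difference of Crem was 0.82 (SE 0.31, adjusted p = 0.197), and another Crem probe set gave 0.96 (SE 0.39). Without BPH 1 it was called at 1.21 (adjusted p = 0.0399), and without the 2 arrays with muscle transcripts at 1.03 (adjusted p = 0.0175). The coactivator Crebbp, which binds phosphorylated CREB, differed by 0.64 (adjusted p = 0.0743). The kinase anchor gene Akap8 differed by 0.77 (adjusted p = 0.112), and was called without BPL 3 at 0.98 (adjusted p = 0.0422). Leaving out BPL 3 raised the calls over all tested genes from 138 to 298. The other Akap8 probe sets disagreed, with 0.41 (SE 0.36) and -0.42 (SE 0.23). The adenylyl cyclase gene Adcy7 differed by 0.49 (adjusted p = 0.202).

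Of 54 genes listed for angiotensin II and calcium signalling 35 were on the array and 26 were tested, none passed in limma, 3 had an unadjusted p under 0.05, and the median was 0.00. The protein kinase C gene Prkce had 893.3 ± 182.3 in BPH and 1727 ± 269.9 in BPL (SD, n = 3 each). Its log2 difference was -0.96 (SE 0.24, adjusted p = 0.0724). It was called without BPL 3 at -1.10 (adjusted p = 0.0488), with 298 called over all tested genes, against 138 with all arrays. Mef2d, a factor that drives Nr4a1 in response to calcium in T cells, differed by 0.38 (SE 0.12, adjusted p = 0.136). Nfatc2, a calcineurin-regulated factor, differed by -0.48 and the kinase gene Prkd1 by -0.57, with adjusted p of 0.209 and 0.278.

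Many other early response genes were higher in BPH too. Of 72 listed genes 57 were on the array and 52 were tested, of which 19 were called higher and 1 lower in BPH, 38.5% in all against the 2.48% of all genes. The median log2 difference was 0.39, against 0.04 over all tested genes. Much of this list was already known to differ on these arrays, so the count is no independent evidence. The stress gene Gadd45b (3.00) had the largest difference of the list at the brightest probe set of each gene. The AP-1 gene Fos (1.68, SE 0.32, adjusted p = 0.0343) and Gem (1.67, SE 0.27, adjusted p = 0.0178), a small GTPase that restrains calcium channels, were called higher. The growth factor feedback gene Errfi1 rose by 1.41 (SE 0.18, adjusted p = 0.00554), as did Ccn2, a matrix-associated growth factor gene (1.41, adjusted p = 0.0196). The kinase gene Pim3 (1.60), Junb (1.34), the clock gene Per1 (1.30) and Rgs2 (1.30), which limits G protein signalling, were called as well. Another probe set of Junb gave 2.90 (SE 0.33) and another of Errfi1 gave 0.82 (SE 0.16). The phosphatase gene Dusp1 (1.04), the C/EBP factors Cebpd (1.13) and Cebpb (0.61), the zinc finger factor gene Klf4 (1.02) and Ier2 (0.94) followed. The antiproliferative genes Btg1 (0.87) and Btg2 (0.70), the coactivator gene Cited2 (0.70), the kinase gene Pim1 (0.66) and the RNA-binding protein gene Zfp36l1 (0.74) complete the 19. Klf10, a TGF-beta-induced repressor, was the 1 called lower, at -0.89 (SE 0.17, adjusted p = 0.0333). The 32 other tested members were not called.

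Within BPH, 10 of the 19 early genes called higher had their arrays in the same order as Nr4a1. The share of all tested genes with this full order was not computed, so nothing is read from that count. BPH 1 was the lowest BPH array for 15 of the 19 and BPH 3 the highest for 12. Over all 5555 tested genes BPH 1 was the lowest BPH array for 37.5% and BPH 3 the highest for 34.5%, and no test of these counts was made. In BPL the lowest array was BPL 2 for 10 of the 19, and the share over all tested genes was not computed for this either. Within fluidics station 1 their log2 differences lay between 0.63 and 3.14, on arrays that had also served to choose them. The number called was sensitive to the arrays used. Against 20 called members in all, 19 higher and 1 lower, the list had 12 with BPH 1 left out, which include 10 of the 19 and Per2. It had 5 with BPH 2 left out, 4 with BPH 3 left out and 8 with BPL 1 left out. Within station 1, or with the station as a block, it had 1. It had 8 without the intensity trend and 1 with no filter on dim probe sets. Calls over all tested genes fell as well, from 138 to 68 without BPH 1, 32 without BPH 2, 33 without BPH 3 and 60 without BPL 1. They were 65 without the intensity trend and 48 with no filter, so the loss of calls was not particular to this list. Without BPL 2, the array richest in brown fat transcripts, 16 members were called, and without the 2 arrays with muscle transcripts 18 were, with 15 and 14 of the 19 among them.

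Of 20 called early genes 15 had an upstream window in the RefSeq table, and 10 of the 15 held at least 1 CRE half-site, among them Fos, Junb, Per1, Dusp1 and Rgs2. Of the 32 not called 27 had a window and 13 held one. The share over all windows was 17.8%, counted per window, whereas a gene counted here if any of its windows held one. The shares are therefore not in like units, were not matched for G and C content, and are not compared. The TGCGTCA element of Nr4a1 was found in the windows of Btg1 and Cebpb, and for 1 of the 27 genes not called that had a window.

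Of the genes reported elsewhere as direct targets of Nr4a receptors, 1 was called. Of 24 listed genes 17 were on the array and 10 were tested, 3 had an unadjusted p under 0.05, and the median was 0.05. The call was Hsd3b6, higher in BPH, which encodes a steroid dehydrogenase of the outer cortex of the mouse. Its intensities were 4710.5, 3455.8 and 3277.2 in BPH, against 1388.5, 1184 and 2228.4 in BPL. The groups did not overlap, and the log2 difference was 1.29 (SE 0.25, adjusted p = 0.0344). Its probe set may also detect near-identical Hsd3b copies. Within BPH, the order of the arrays was the reverse of that of Nr4a1, with BPH 1 the highest. The call was lost without BPH 1, BPH 2, BPH 3, BPL 1 or BPL 2, and within station 1 or with the station as a block, each of which left 0 called members. It was also lost without the 2 arrays with muscle transcripts. The log2 difference itself was between 1.10 and 1.39 with 1 of those 5 arrays left out (adjusted p between 0.0599 and 0.112), 1.09 within station 1 and with the station as a block, and 0.94 without the 2 arrays with muscle transcripts (adjusted p = 0.103). Without BPL 3 it was 1.55, and 2 members were called, with 298 called over all tested genes, against 138 with all arrays. Hsd3b1, a much brighter member of the list, had means of 122800 in BPH and 119700 in BPL and was not called. Its log2 difference was 0.03 (SE 0.15), and another Hsd3b1 probe set gave 0.37 (SE 0.18). Star, the mitochondrial cholesterol carrier, had 94390 ± 7023 in BPH and 95130 ± 4755 in BPL (SD, n = 3 each). The log2 difference was -0.01 for Star (SE 0.14), -0.06 for the side chain cleavage enzyme gene Cyp11a1 (SE 0.14) and 0.06 for the 21-hydroxylase gene Cyp21a1 (SE 0.18). Th, which encodes tyrosine hydroxylase of the catecholamine pathway and is a target of Nr4a2 in neurons, differed by 0.78 (SE 0.28, adjusted p = 0.168), and was called without BPL 3 at 1.14 (adjusted p = 0.0138). Pnmt, the adrenaline-forming enzyme and not on the list, differed by 0.98 (SE 0.24, adjusted p = 0.0723), and Cdkn1c, a cell cycle inhibitor gene, by -0.45 (adjusted p = 0.126). Th and Pnmt are among the medulla markers summed above, and the part of the medulla sums in their differences was not tested. Of 7 listed targets with an upstream window, Ddc, the aromatic amino acid decarboxylase gene, was the 1 with an NBRE, and its log2 difference was 0.08 (SE 0.46).

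Of 46 nuclear receptors other than Nr4a, 36 were on the array and 19 were tested, none passed in limma, 6 had an unadjusted p under 0.05, and the median was -0.05. Nr5a1 (SF-1), the master regulator of steroid cells, had 34620 ± 795.4 in BPH and 30990 ± 4589 in BPL (SD, n = 3 each) at its brightest probe set. The log2 difference there was 0.17 (SE 0.14, adjusted p = 0.528), and other Nr5a1 probe sets gave 0.44 (SE 0.14) and 0.30 (SE 0.19). Nr0b1 (DAX-1), the repressor of Nr5a1, differed by 0.60 (SE 0.26, adjusted p = 0.247). The smallest p-values belonged to Nr1h3 (-0.70, adjusted p = 0.115), a receptor for oxysterols, and to the fatty acid receptors Ppara (-0.85, adjusted p = 0.133) and Pparg (-0.91, adjusted p = 0.168). Each of these 3 was highest on BPL 2, the array with the most brown fat signal. Ppara is itself among the summed brown fat markers, so its match is partly built in, and Pparg is among the general fat markers. Without BPL 3 Ppara was called at -1.15 (adjusted p = 0.0247), with 298 called over all tested genes, against 138 with all arrays.

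Of 36 genes listed as partners and modifiers of the Nr4a proteins, 28 were on the array and 23 were tested, none passed in limma, 6 had an unadjusted p under 0.05, and the median was 0.13. Retinoid X receptors pair with Nr4a1 and Nr4a2 on DNA. Rxrb differed by -0.50 (SE 0.19, adjusted p = 0.206). Rxra differed by 0.81 at its brightest probe set (SE 0.36, adjusted p = 0.259) and by 0.04 at another. Fhl2, a LIM-domain protein that binds Nr4a1, differed by 0.49 (adjusted p = 0.146), the stress kinase gene Mapk8 by 0.42 (adjusted p = 0.148) and Stk11, the kinase LKB1, by -0.57 (adjusted p = 0.176).

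**Figure D4:**
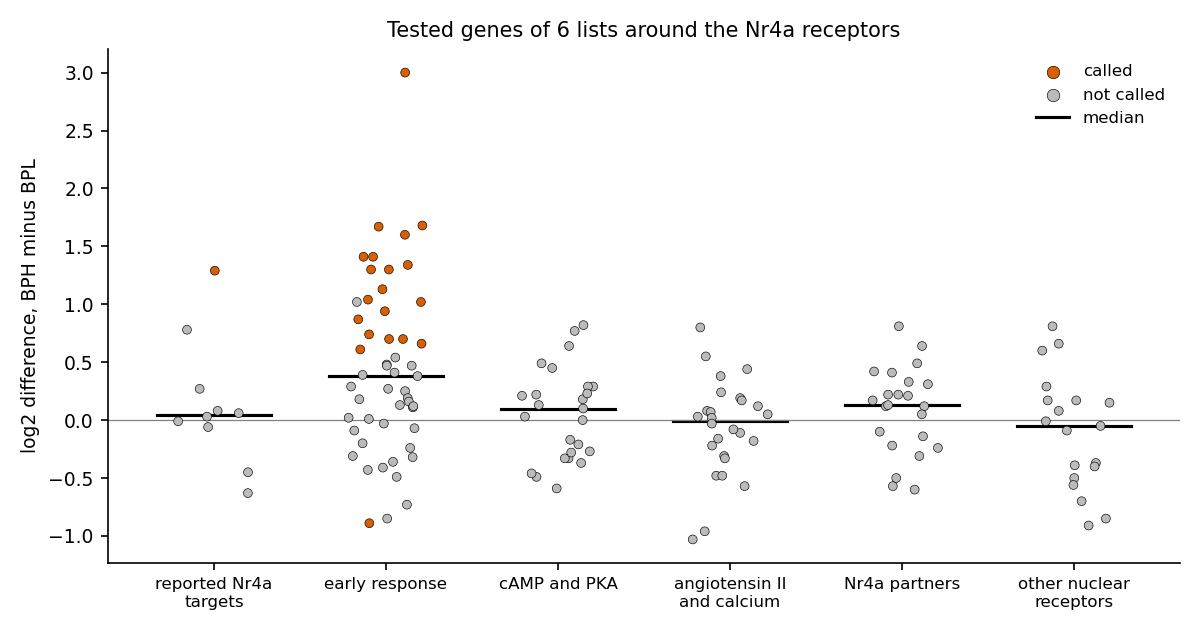
Log2 difference, BPH minus BPL, of every tested gene in 6 lists around the Nr4a receptors, with called genes in orange, others in grey and the list median as a black line. Called genes are found in the early response list, 19 higher and 1 lower, and in the list of reported targets, which has 1.

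The genes whose pattern over the 6 arrays lay nearest to each Nr4a probe set were found by the root mean square distance between log2 intensities, each gene first centred on its own mean. A distance of 0 would mean the same differences on every array. For Nr4a1 the nearest of 5553 genes were the chemokine receptor gene Cxcr4 (distance 0.31), Thumpd1 (0.34), which acts in tRNA modification, Gdpd3 (0.36), a lipid phosphodiesterase gene, Amacr (0.37), a peroxisomal racemase gene, and Gadd45b (0.38). The median distance of all genes was 1.22. Gadd45b had 22183, 26115.1 and 28032.8 in BPH, against 3886.8, 2175.3 and 3767 in BPL. Like Nr4a1 it was lowest on BPH 1 among BPH arrays and lowest on BPL 2 among BPL arrays. All 5 had log2 differences between 2.05 (Thumpd1) and 3.00 (Gadd45b), since a gene can lie near Nr4a1 on this measure only with a strain difference of similar size.

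For Nr4a2 the 2 probe sets had different neighbours in this measure. Nearest to 92248_at lay Srxn1, the antioxidant gene of sulfiredoxin (0.41), Ccn2 (0.47), Pim3 (0.51), D10Wsu102e (0.52) and Amacr (0.52), against a median of 1.15. Srxn1 had 3334.4, 6695.7 and 7804.4 in BPH, against 2245.2, 1621.5 and 2466.2 in BPL, so it too was lowest on BPH 1 and on BPL 2 within each strain. Nearest to 92249_g_at lay Rom1, a photoreceptor membrane protein gene (0.27), Taf6, of the general transcription factor TFIID (0.30), Crem (0.35), the clock gene Per2 (0.35) and Mnat1, of the CDK-activating kinase (0.36), against a median of 0.70. Per2 had 1553.7, 2891.4 and 3385.5 in BPH, against 1154.9, 1086.6 and 1458.7 in BPL, with a log2 difference of 1.02 (SE 0.29, adjusted p = 0.0977). Without BPH 1 it was called at 1.35 (adjusted p = 0.0248). With 6 arrays that share a chip lot, these distances are descriptions.

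**Figure D5:**
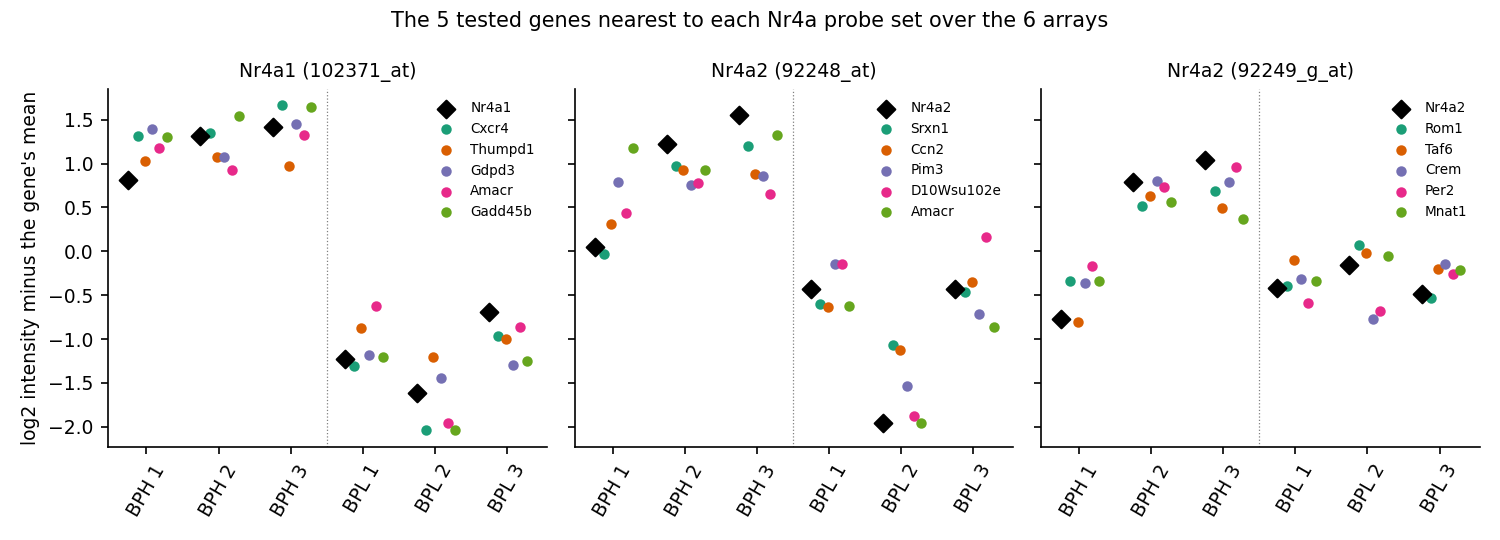
Log2 intensity on each array minus the gene's mean over the 6 arrays, for each Nr4a probe set (black diamonds) and its 5 nearest tested genes (coloured points), BPH arrays left of the dotted line. The Nr4a1 neighbours separate the strains, and the neighbours of 92249_g_at are lower on BPH 1 than on BPH 2 and BPH 3.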

How the data were processed

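The authors deposited a linear intensity for each probe set of each Affymetrix MG_U74Av2 array. The sources used here do not give their probe summary method. On every array the 2% trimmed mean was 2501.3 to 2501.5, so the deposited intensity values were already on a common scale and were not rescaled. Median intensities lay between 1003.5 and 1114.7, and the number of arrays limits the precision.

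Values under the 20th percentile of the table (201.3) were raised to it and taken to log2, as in an earlier analysis of these data. Removed were 66 control probe sets and all probe sets with a mean log2 intensity under that of the 40th percentile (668.1), leaving 7293. The strains were compared by trended eBayes in limma 3.58.1 under R 4.3.3, two-sided. A gene was its brightest tested probe set (5555 genes). Of 10855 probe sets with 1 gene, 10839 took the current symbol from RefSeq by gene number; 396 with several genes and 1237 with none were not named.

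The members and gene lists were chosen with earlier results of these data known. Named genes were all called members of a list, or up to 4 with the smallest p, 10 fixed genes, and the 5 genes nearest to each probe set. Genes named beyond this rule (Cdkn1c, Hsd3b1, Ddc and the chromosomal neighbours) were named after their values were seen. There were 19 alternative settings.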

Additional observations from a re-analysis of the deposited data

How the results depend on the processing

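The 3 Nr4a differences kept their sign under every alternative run, and each moved by less than 1 SD between arrays of a strain. On the log2 scale this SD was 0.4 for Nr4a1, 0.84 for 92248_at and 0.7 for 92249_g_at. For 92249_g_at it is as large as the difference itself, which ran from 0.36 to 1.39, so the limit is a lax one there. Leaving out 1 array gave 2.14 to 2.60 for Nr4a1, 1.37 to 2.33 for 92248_at and 0.36 to 1.26 for 92249_g_at. The mean of both Nr4a2 probe sets differed by 1.29, and with the filter at the 60th percentile neither was tested. The 138 genes called, 20 early genes and 1 reported target became 48, 1 and 0 with no filter, 65, 8 and 0 without the intensity trend, 12, 1 and 0 with the station as a block, and 7, 1 and 0 within station 1. Without the 2 arrays with muscle transcripts 1 cyclic AMP gene and 0 targets were called. With 1 array left out the counts ran from 32 to 298 over all genes, 4 to 18 for early genes, 0 to 2 for targets, and 0 to 1 for the cyclic AMP, the calcium and the nuclear receptor lists. The low counts within station 1 rest on 1 BPH array. Same-numbered arrays did not deviate together (correlations of -0.22, -0.08 and 0.01). The labels do not say whether the numbers pair arrays, and these correlations cannot settle it. With the replicate number as a block 96 genes were called, 14 of them early genes, and the Nr4a1 difference was 2.36. No probe-level signal or detection call was used, so whether the dim Nr4a2 values lie above background is unknown.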

Other observations

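None of the tested genes next to Nr4a1 on chromosome 15 was called. The 3 nearest tested protein-coding genes on each side, taken by position, were Acvrl1 (log2 difference -0.51), Acvr1b (0.41) and Cela1 (0.29) on one side and Krt81 (-0.10), Krt86 (-0.33) and Krt84 (-0.12) on the other, with limma as the test. Acvr1b and Acvrl1 encode receptors of the TGF-beta family, Cela1 a pancreatic-type elastase and the 3 Krt genes hair keratins. Acvrl1 had the smallest unadjusted p of the 6, 0.0481.

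Near Nr4a2 on chromosome 2 the nearest tested gene on one side was Gpd2, the mitochondrial glycerol phosphate dehydrogenase, with 2 other protein-coding genes between them. It had 4091.2, 2988.2 and 3517.3 in BPH, against 11666.2, 25526.5 and 8116.8 in BPL, a log2 difference of -1.94 (SE 0.35, adjusted p = 0.0297 in limma), opposite in sign to Nr4a2. Its highest value was on BPL 2, the array with the highest brown fat marker sum, and the part of fat in this difference was not tested. The other 5 tested neighbours were not called, with log2 differences of -0.90 for Stam2, 0.40 for Orc4, 0.11 for Acvr2a, 0.11 for Cytip and -0.51 for Acvr1.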
